A study of Mus musculus with 2 samples.

Results

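The Rab genes encode small GTPases that mark the membranes of the secretory and endocytic routes. They were taken as all genes of the count matrix whose symbol is Rab followed by a number and at most 1 letter, and 59 of 32285 genes met this rule. Of these, 58 had at least 1 UMI (unique molecular identifier, a count of distinct transcripts) in the nuclei kept, 32327 UMIs in all, and Rab9b had 0. The nuclei came from mammary tumours of PyMT mice, in which the polyoma middle T oncogene drives the tumour, backcrossed to B6. Nuclei of tumour-associated macrophages were profiled from 1 sample of control-PyMT mice and 1 of MYC-PyMT mice, whose full name is S100a8-cre Rosa26-LSL-MYC PyMT, so that MYC is switched on by the promoter of a neutrophil gene. Recipients of both genotypes were irradiated at 7 weeks of age and received marrow of Fcgr1-cre donors with a cre-dependent H2B-mCherry allele. They went on a low protein diet 2 weeks later, for 6 weeks. The marrow donors carried no MYC allele by the labels, and the number of mice behind each sample is not given in the sources used here. Cells were sorted as live, CD45, F4/80 and Vcam positive and Siglec-F, Ly6G, B220 and Ly6C negative, and their nuclei as mCherry and SYTO9 positive and CD11b negative.

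A Rab protein bound to GTP recruits effectors that move, tether or fuse a vesicle, and it is turned on by exchange factors such as the DENN proteins and off by TBC-domain proteins. Along the route from the cell surface to the lysosome, Rab5 proteins act on early endosomes, Rab7 takes over on late endosomes, and Rab4 and Rab11 proteins return cargo to the surface. Macrophages depend on this route to mature phagosomes and to degrade what they engulf.

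The matrix held 1838 barcodes of 2 wells, 1383 with a median of 2487 UMIs in well 1 and 455 with a median of 2834 in well 2, and 1812 nuclei with 7342649 UMIs were kept. Neither well could be tied to a genotype, so the matrix is 1 pooled sample, no genotypes were compared and no p-value is given. All intervals are 95% intervals that cover counting error only. The wells shared 9 barcode sequences. Macrophage nuclei were those with 3 or more UMIs of Ptprc, Csf1r, Adgre1 and Mertk together and with the epithelial genes below 1000 CPM (counts scaled to a total of 1000000 UMIs per set or nucleus). There were 1052 of them (727 in well 1 and 325 in well 2, median 3144 UMIs). Epithelial nuclei had Epcam, Krt8, Krt18, Cdh1 and Elf5 together at 1000 CPM or more and fewer than 3 of those macrophage UMIs. There were 363 (333 and 30, median 1199 UMIs), although the sort was for macrophage nuclei. Nuclei meeting both rules (78) were kept apart. The names were checked on markers that the rules did not use. The 10 further macrophage markers summed to 4290 CPM in macrophage and 632 CPM in epithelial nuclei, with none at 0 in either. The 8 further epithelial markers summed to 265 and 2990 CPM, with none at 0 in either. Markers of each type were thus also counted in nuclei of the other, and their part in the results below was not tested.

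Within the macrophage nuclei, 3 exclusive states were set by gene sums. The 312 stress nuclei (260 in well 1, 52 in well 2) had 14 immediate-early and heat shock genes at 5000 CPM or more. The 132 resident-like nuclei (22 and 110) had F13a1, Mrc1, Lyve1, Folr2, Cd163 and Timd4 at 1000 CPM or more. The 15 Gpnmb-positive nuclei (2 and 13) had 2 or more UMIs of Gpnmb, a gene of lipid-laden macrophages. The 530 nuclei in none of these states (439 and 91) are called steady, and 63 nuclei in more than 1 state were kept apart.

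Promoter sequences of RefSeq (build GRCm38.p6, 250 bases before and 50 after each start) were at hand for 48 of the 59 Rab genes. The windows of Rab39 and Rab34 are shown first, up to the annotated start, because these genes were far apart in the comparison of macrophage with epithelial nuclei. They are read 5′ to 3′ on the gene's strand, at chr9:53706233-53706482 (minus strand) and chr11:78188177-78188426 (plus strand). Capitals mark a match to the AP-1 motif TGANTCA.
Rab39: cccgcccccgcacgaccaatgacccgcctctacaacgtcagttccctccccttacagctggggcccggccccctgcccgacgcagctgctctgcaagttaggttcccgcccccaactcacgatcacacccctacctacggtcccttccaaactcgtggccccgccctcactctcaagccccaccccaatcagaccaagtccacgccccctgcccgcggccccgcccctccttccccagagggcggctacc
Rab34: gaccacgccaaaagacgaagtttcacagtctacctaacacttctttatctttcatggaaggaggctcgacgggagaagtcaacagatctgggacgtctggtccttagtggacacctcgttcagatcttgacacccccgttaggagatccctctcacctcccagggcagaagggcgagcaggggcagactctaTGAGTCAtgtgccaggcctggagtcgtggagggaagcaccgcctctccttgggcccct

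Shorter stretches of 3 more promoters are shown because their genes carry the results below: Rab20, which differed between macrophage states, Rab32, which was higher in macrophage nuclei, and Rab15, which was lower. Capitals mark the E-box CACGTG in Rab20, the PU.1 motif GAGGAAGT in Rab32 and the AP-1 motif in Rab15. They lie at chr8:11478671-11478696, chr10:10558233-10558260 and chr12:76818603-76818624, all on the minus strand. By the RefSeq starts these stretches lie upstream, but by GENCODE vM21 they lie inside the genes. The GENCODE genes begin at 11478710 (Rab20), 10558265 (Rab32) and 76822908 (Rab15).
Rab20: gccgggcaccCACGTGgtcgcagggc
Rab32: agccagggaaGAGGAAGTgccgggacca
Rab15: ggaaaTGACTCAaaccatcagg

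These 3 motifs were searched on both strands and do not overlap one another in these windows. The E-box was in 6.86% of the 27025 promoters of the table and in 5 of the 48 Rab promoters (Rab20, Rab21, Rab23, Rab27a and Rab5a). The PU.1 motif was in 2.79% of all promoters and in 2 Rab promoters (Rab2b and Rab32). The AP-1 motif was in 7.82% of all promoters and in 2 Rab promoters, Rab15 and Rab34, both genes of epithelial nuclei in these data. A match describes the letters only.

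The summed level of the Rab genes was higher in macrophage nuclei, 5107 CPM (5035 to 5181) against 3521 CPM (3436 to 3608) in epithelial nuclei. The sum rested on a few members. Most of the gap came from Rab8b (674 and 67.9 CPM), Rab43 (426 and 71.1 CPM) and Rab31 (350 and 103 CPM). Rab7b (264 and 35.8 CPM) and Rab20 (215 and 38.0 CPM) came next. Mitochondrial counts were 598 and 2432 CPM and ribosomal protein counts 10147 and 19757 CPM in these sets, and their part in the Rab levels was not tested. The family split in both directions. A gene was counted as higher or lower where the ratio of its CPM was 2 or more, or 0.5 or less, its interval excluded 1, and it had 20 or more UMIs over both sets. Of the 46 Rab genes with enough UMIs, 8 were higher in macrophage nuclei (17.4%, against 15.9% of all genes tested) and 12 were lower (26.1%, against 28.1% of all genes). Both shares were near the background of all genes, so the counts do not set the Rab family apart. The members are described singly below. The median macrophage to epithelial ratio was 1.08 over the tested Rab genes and 0.778 over all 12210 genes tested. Scaled by that median, 11 Rab genes were higher and 9 lower. The added ones were Rab7, Rab5c and Rab40c, while Rab18, Rab23 and Rab24 no longer counted as lower. Another 13 Rab genes had too few UMIs, among them Rab3a, Rab3b, Rab3c, Rab26, Rab44 and Rab13.

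**Figure D1:**
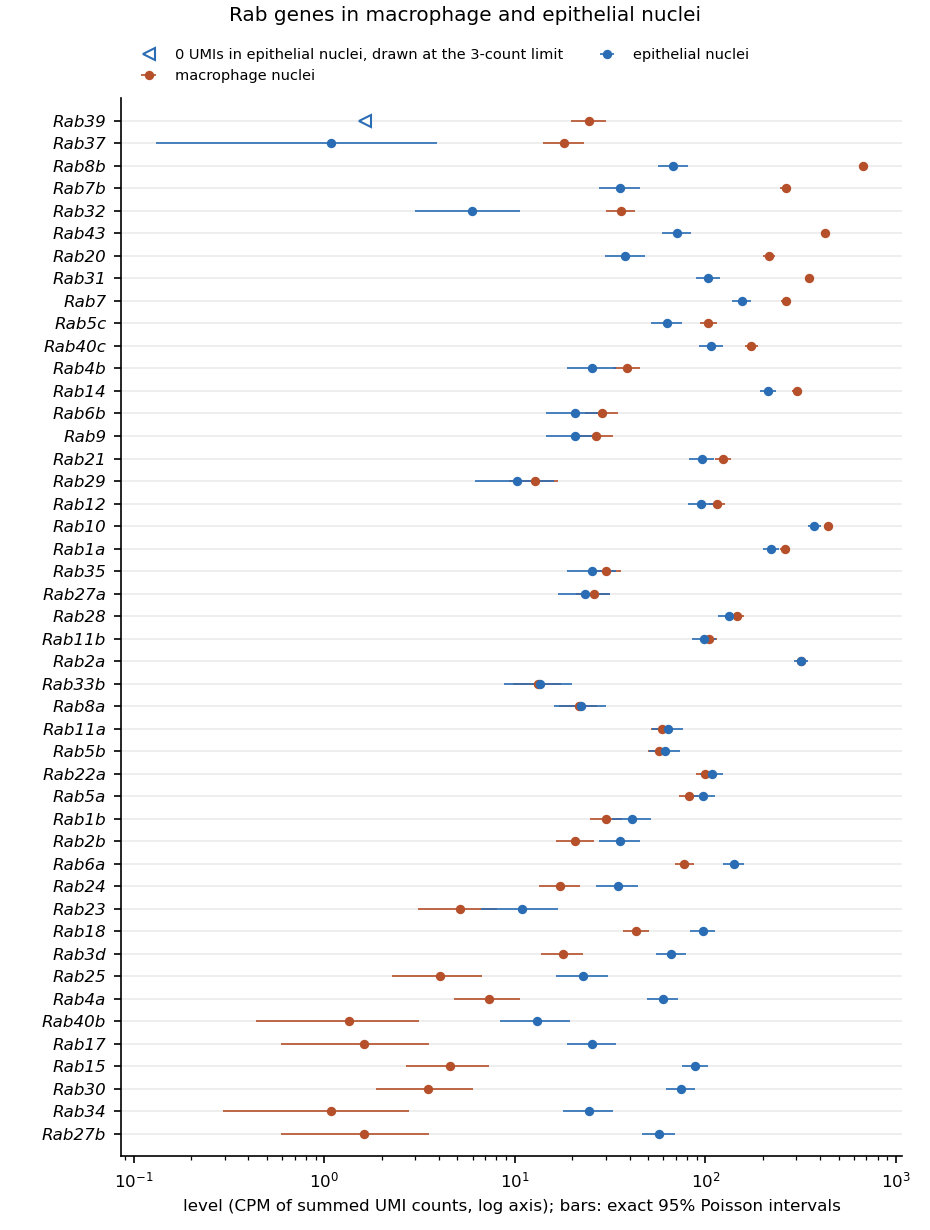
Level of each Rab gene that reached 10 CPM in macrophage or epithelial nuclei, in CPM on a log axis, with exact Poisson intervals over all nuclei of a set. Genes are ordered by the macrophage to epithelial ratio. Rab39 to Rab31 stand to the right in macrophage nuclei at the top, and Rab27b, Rab34, Rab30 and Rab15 stand far to the left of their epithelial levels at the bottom.

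Among the Rab genes of late endosomes and lysosomes, 3 of 7 tested were higher in macrophage nuclei and none was lower. Their summed level over all 11 members was 745 CPM in macrophage and 330 CPM in epithelial nuclei. Over all genes tested, 15.9% were higher and 28.1% lower, which is the background for this and each later role group. With so few genes per group, the counts only describe the groups. Rab7b, which acts between late endosomes and the Golgi, stood at 264 CPM in macrophage and 35.8 CPM in epithelial nuclei, 7.36-fold higher (5.73 to 9.59) and 9.46-fold relative to the median gene. Its level in macrophage nuclei was 264 CPM in well 1 and 262 CPM in well 2. Rab7, its general relative on late endosomes, stood at 265 and 155 CPM, a ratio of 1.71 (1.50 to 1.96). Rab7 thus stayed below the 2-fold limit, while its ratio relative to the median gene was 2.20. Rab7b accounted for 49.9% (47.7 to 52.1) of the UMIs of the pair in macrophage nuclei and 18.8% (14.9 to 23.3) in epithelial nuclei. Pair shares here and below are of raw UMIs without regard to gene length. They compare the sets of nuclei and not the levels of the genes in a pair.

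Rab39 (chr9:53684110-53706232 in GENCODE vM21) was counted in macrophage nuclei alone, with 91 UMIs (24.6 CPM) against 0 in epithelial nuclei. Set against a floor of 3 counts over the epithelial nuclei, it was at least 15.1-fold higher. This bound rested on well 1 (also 15.1), since the 30 epithelial nuclei of well 2 gave a bound of 0.967 and the gene did not meet the rule there. Its relative Rab39b had 1 UMI in each set. Rab32, which serves lysosome-related organelles, had 133 UMIs (35.9 CPM) and 11 UMIs (5.97 CPM), 6.02-fold higher (3.26 to 12.3). Its relative Rab38, best known from pigment granules, ran the other way, with 2 UMIs in macrophage and 14 in epithelial nuclei, too few to be counted. Rab32 therefore made up 98.5% (94.8 to 99.8) of the pair in macrophage nuclei and 44.0% (24.4 to 65.1) in epithelial nuclei.

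The remaining late endosomal genes were similar in both sets. Rab12 stood at 116 and 94.5 CPM, and Rab9, which returns mannose 6-phosphate receptors to the Golgi, at 26.7 and 20.6 CPM. Rab29, a partner of the kinase LRRK2, stood at 12.7 and 10.3 CPM. Their ratios lay between 1.22 and 1.30, and the intervals of Rab9 and Rab29 included 1.

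Of the 10 early endosome and phagosome genes, 2 were higher in macrophage nuclei and 2 were lower. Rab20, a gene of phagosome maturation, stood at 215 CPM in macrophage nuclei and 38.0 CPM in epithelial nuclei, 5.66-fold higher (4.43 to 7.33). Its level in macrophage nuclei was 267 CPM in well 1 and 101 CPM in well 2, and the ratios were 6.56 (5.12 to 8.54) and 14.9 (2.62 to 592), the latter from 1 epithelial UMI. Rab31, which carries cargo from the Golgi to endosomes, stood at 350 and 103 CPM, 3.39-fold higher (2.91 to 3.97). It was the most counted member of its group in macrophage nuclei, and it took 77.9% of the UMIs shared with its relative Rab22a there against 48.8% in epithelial nuclei. Rab22a itself stood at 99.4 and 108 CPM, with an interval of the ratio that included 1.

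The 3 Rab5 genes, which govern early endosome fusion, did not move together. Rab5c stood at 104 CPM in macrophage and 63.0 CPM in epithelial nuclei, a ratio of 1.65 (1.33 to 2.05), and 2.12 relative to the median gene. Rab5a stood at 81.6 and 97.2 CPM, and Rab5b at 57.3 and 61.4 CPM, both with intervals that included 1. Rab14, which links the Golgi with endosomes, stood at 302 and 213 CPM, and Rab21, known from integrin uptake, at 124 and 96.1 CPM. All 5 lay within 2-fold of equality.

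The lower members of this group were Rab34 and Rab24. Rab34, which acts in macropinocytosis and at the cilium, had 4 UMIs (1.08 CPM) in macrophage and 45 UMIs (24.4 CPM) in epithelial nuclei, 22.6-fold lower (8.24 to 86.6). Rab24, linked to autophagy, had 64 UMIs in each set (17.3 and 34.8 CPM), 2.01-fold lower (1.40 to 2.89). Its reads overlap those of Prelid1 on the other strand, and whether counting used the strand is not given in the sources used here. It no longer counted once scaled by the median gene (1.56-fold lower).

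Of the recycling and plasma membrane genes, 1 of 11 tested was higher and 4 were lower in macrophage nuclei. Rab8b, which carries vesicles to the plasma membrane, had 2495 UMIs in macrophage nuclei, the most of any Rab gene there. It stood at 674 CPM (648 to 701) against 67.9 CPM (56.5 to 80.9) in epithelial nuclei, 9.93-fold higher (8.30 to 12.0). In macrophage nuclei its level was 669 CPM in well 1 and 685 CPM in well 2. Its relative Rab8a stood at 21.6 and 22.3 CPM, a ratio of 0.971 (0.658 to 1.45). Rab8b was thus 96.9% (96.2 to 97.5) of the UMIs of the pair in macrophage nuclei and 75.3% (68.0 to 81.7) in epithelial nuclei. Rab8b is the longer gene (76.0 against 22.7 kilobases). Per kilobase of gene, Rab8b stood at 0.893 and Rab8a at 0.981 CPM in epithelial nuclei.

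The lower ones were Rab15, Rab17, Rab4a and Rab25. Rab15, a gene of recycling endosomes, stood at 4.59 CPM in macrophage and 88.0 CPM in epithelial nuclei, 19.2-fold lower (11.6 to 33.7). Of its 17 UMIs in macrophage nuclei, 41.2% came from 1 nucleus, and the gene overlaps Fntb on the other strand. Rab17 and Rab25 are known from polarised epithelia. Rab17 stood at 1.62 and 25.5 CPM, 15.7-fold lower (6.72 to 45.1), and Rab25, a relative of Rab11, at 4.05 and 22.8 CPM, 5.63-fold lower (3.06 to 10.9).

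Rab4a and Rab4b, which return cargo from early endosomes to the surface, lay on opposite sides of equality. Rab4a stood at 7.29 CPM in macrophage and 59.7 CPM in epithelial nuclei, 8.19-fold lower (5.34 to 13). Rab4b stood at 38.6 and 25.5 CPM, a ratio of 1.51 (1.08 to 2.15). The share of Rab4b in the pair was 84.1% (77.7 to 89.3) in macrophage and 29.9% (22.9 to 37.8) in epithelial nuclei, and the intervals did not overlap. The widely expressed Rab10 (442 and 374 CPM), Rab11a (59.4 and 63.5 CPM), Rab11b (104 and 98.8 CPM) and Rab35 (30.0 and 25.5 CPM) differed little. Rab10 overlaps the antisense gene Rab10os.

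**Figure D2:**
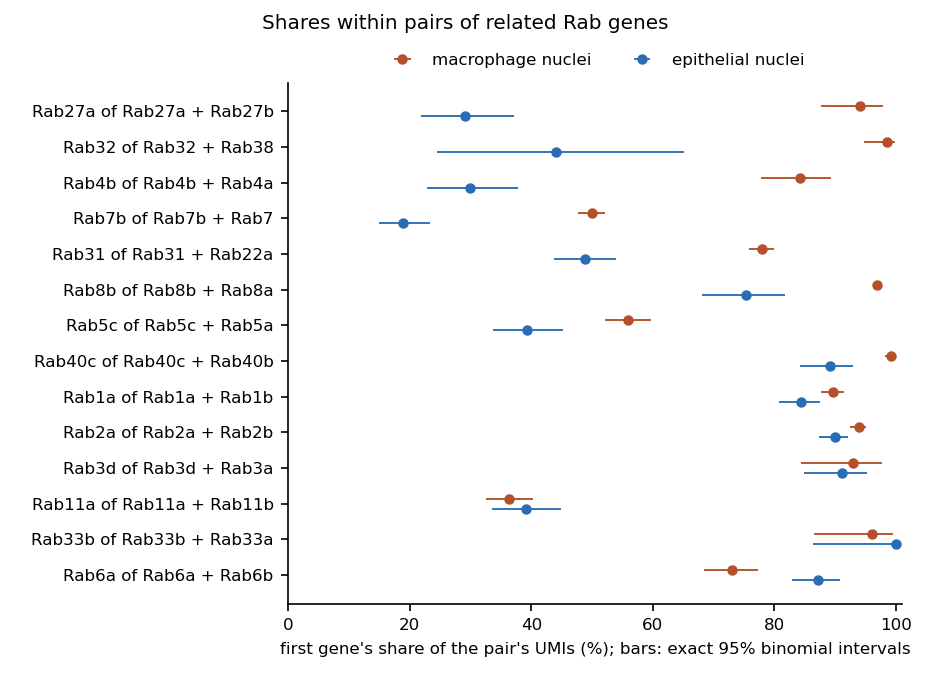
Share of the first gene in the UMIs of each pair of related Rab genes, in percent, with exact binomial intervals, for pairs with 20 or more UMIs in both sets. Shares are not corrected for gene length. Rab27a, Rab32, Rab4b, Rab7b and Rab31 took a larger share in macrophage nuclei, while Rab11a with Rab11b and Rab3d with Rab3a divided alike.

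Genes of regulated secretion were low in macrophage nuclei, 69.2 CPM over 9 members against 167 CPM in epithelial nuclei. Rab27a and Rab27b, which dock secretory granules, again differed within the pair. Rab27a stood at 25.9 and 23.4 CPM, while Rab27b had 6 UMIs (1.62 CPM) against 105 (57.0 CPM), 35.2-fold lower (15.6 to 98.0). Rab27a made up 94.1% (87.6 to 97.8) of the pair in macrophage nuclei and 29.1% (21.9 to 37.1) in epithelial nuclei. Rab3d, another granule gene, stood at 17.8 and 66.2 CPM, 3.72-fold lower (2.73 to 5.09). In well 2 alone the direction turned, with 21 UMIs against 1 and a ratio of 2.65 (0.426 to 109). Rab37 had 67 UMIs against 2, a ratio of 16.7 (4.44 to 140.5), but it overlaps Cd300lf, a myeloid receptor gene on the other strand, and the 2 cannot be told apart here.

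Of the endoplasmic reticulum and Golgi genes, 1 of 10 tested was higher and 2 were lower. Rab43, a Golgi Rab, stood at 426 CPM in macrophage nuclei and 71.1 CPM in epithelial nuclei, 5.99-fold higher (5.01 to 7.21). Its level in macrophage nuclei was 499 CPM in well 1 and 268 CPM in well 2, both above the epithelial level. Rab30, another Golgi Rab, stood at 3.51 and 74.4 CPM, 21.2-fold lower (12.0 to 40.8). Rab18, found on lipid droplets, stood at 43.2 and 97.2 CPM, 2.25-fold lower (1.81 to 2.80). It was 1.75-fold lower relative to the median gene and stood at 1.01 in well 2 alone, where only 30 epithelial nuclei were present. Of the same group, Rab1a (261 and 222 CPM) and Rab2a (317 and 318 CPM) hardly differed. Rab6a (77.5 and 141 CPM), Rab2b (20.8 and 35.8 CPM) and Rab1b (30.3 and 41.3 CPM) were lower in macrophage nuclei but within 2-fold. Rab6b stood at 28.6 CPM (23.4 to 34.6) and 20.6 CPM (14.6 to 28.3), also within 2-fold and with overlapping intervals.

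In the group of ciliary and other genes, Rab40c, part of a ubiquitin ligase, stood at 174 and 107 CPM, a ratio of 1.63 (1.38 to 1.92). Rab40b had 5 UMIs against 24, 9.65-fold lower (3.61 to 32.4). Rab23, a regulator of Hedgehog signalling, had 19 and 20 UMIs, 2.12-fold lower (1.07 to 4.19). Rab28 stood at 147 and 133 CPM. Over the 12 lower genes, 5.11 to 16.7% of the epithelial UMIs of a gene came from its highest nucleus. The count of lower genes was 2 with every nucleus thinned to 1000 UMIs, where many members fell under the UMI minimum, and 0 in well 2. The count of higher genes did not move by more than 1.5 times in any alternative.

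Levels of different genes were also read per length of gene. Whether this scale suits these counts was not tested, since the sources used here do not say if introns were counted. On the scale of CPM per kilobase in macrophage nuclei, the order was led by Rab43 (18.3), Rab14 (14.5), Rab1a (10.3), Rab7b (9.86), Rab8b (8.87) and Rab20 (8.54). In epithelial nuclei Rab43 stood at 3.05, Rab14 at 10.2, Rab1a at 8.71, Rab7b at 1.34, Rab8b at 0.893 and Rab20 at 1.51 CPM per kilobase. Rab14 and Rab1a were thus among the densest genes in both sets. All of these genes were lower in epithelial nuclei, and the difference was larger for the other 4. Rab24, a gene of 2.20 kilobases, went the other way, at 7.85 CPM per kilobase in macrophage and 15.8 in epithelial nuclei. Gene length is a rough guide in nuclei, because reads at introns and at the 3′ end scale with it differently.

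The shares of nuclei with a UMI showed the same contrast at equal depth. After thinning to 1000 UMIs, which kept 1023 macrophage and 199 epithelial nuclei and left out 29 and 164, Rab8b was seen in 42.0% (39.0 to 45.1) and 10.1% (6.25 to 15.1). The shares before thinning were 73.4% and 21.5%. Rab43 was seen in 34.9% and 8.54% of thinned nuclei, Rab31 in 30.5% and 12.1%, Rab7b in 21.2% and 7.04%, and Rab20 in 14.8% and 4.52%. Rab15 was seen in 0.391% and 7.54%, and Rab27b in 0 of 1023 thinned macrophage nuclei (3 counts would be 0.293% of these) against 6.03% of epithelial nuclei. Before thinning, Rab27b was seen in 0.380% and 14.3%.

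Among the macrophage states, stress nuclei had the highest summed Rab level, 5637 CPM (5493 to 5784), against 4824 CPM (4725 to 4924) in steady nuclei. Of 38 Rab genes tested, 1 was higher in stress nuclei (2.63%, against 5.08% of all genes) and 3 were lower (7.89%, against 7.08%). The median ratio was 0.974 over these genes and 0.829 over all 9642 genes tested. Scaled by that median, 3 were higher (Rab20, Rab9 and Rab37) and 2 lower.

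The higher gene was Rab20. It stood at 498 CPM in stress nuclei and 119 CPM in steady nuclei, 4.17-fold higher (3.56 to 4.90), and 5.03-fold relative to the median gene. Thinned to 1000 UMIs, 31.1% (25.9 to 36.7) of stress nuclei and 8.72% (6.43 to 11.5) of steady nuclei had a Rab20 UMI, against 50.6% and 23.2% before thinning. The gene that overlaps it on the other strand is E230013L22Rik. The wells differed in this result. In well 1 Rab20 stood at 560 CPM in stress and 119 CPM in steady nuclei, a ratio of 4.71 (3.98 to 5.61). In well 2 it stood at 184 and 123 CPM, a ratio of 1.50 (0.897 to 2.49), which was below the 2-fold limit and its interval included 1. The steady levels of both wells overlapped and the stress levels did not.

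The stress state was divided, after its values had been seen, by the summed level of Il1b and Nlrp3, genes of inflammatory macrophages, at 1000 CPM. Rab20 stood at 652 CPM in the 157 nuclei above this limit and 367 CPM in the 155 below it, a ratio of 1.77 (1.48 to 2.13). Within well 1 the levels were 681 CPM (605 to 763) and 437 CPM (377 to 505), and within well 2 they were 345 CPM (189 to 579) and 133 CPM (77.7 to 214). In well 1 the ratio was 1.56 (1.29 to 1.88), below 2-fold. In well 2 the nuclei above the limit also had the higher level, on only 14 and 17 UMIs. The intervals of the 2 levels overlapped in well 2 and did not in well 1. Well 1 had 141 of its 260 stress nuclei above the limit and well 2 had 16 of 52. The median level of the stress genes in stress nuclei was 13490 CPM in well 1 and 11172 CPM in well 2. The part of these differences in the gap between wells was not tested.

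Other vesicle genes shifted less in stress nuclei. Rab8b stood at 898 and 568 CPM, a ratio of 1.58 (1.45 to 1.73), Rab7b at 335 and 219 CPM (1.53, 1.32 to 1.77), and Rab1a, which acts between the endoplasmic reticulum and the Golgi, at 308 and 205 CPM (1.51, 1.29 to 1.75). For Rab8b the ratio was 1.72 (1.56 to 1.90) in well 1 and 1.04 (0.833 to 1.30) in well 2, and for Rab7b it was 1.59 and 1.24. None reached 2-fold, and in well 2 the intervals of all 3 included 1. Rab7 stood at 321 and 232 CPM, a ratio of 1.39 (1.20 to 1.60).

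The lower genes in stress nuclei were rare transcripts. Rab4b had 19 UMIs (18.5 CPM) against 89 (47.0 CPM), a ratio of 0.393 (0.226 to 0.651). Rab33b, a Golgi Rab of autophagy, and Rab3d had 7 UMIs each against 34 and 38, with ratios of 0.379 (0.142 to 0.869) and 0.339 (0.128 to 0.769). In well 2 the Rab4b ratio was 0.792 (0.216 to 2.47), from 5 and 11 UMIs. Rab5c stood at 58.4 and 101 CPM, a ratio of 0.576 (0.424 to 0.773), and it was below 1 in well 1 (0.654) and in well 2 (0.317), with both intervals under 1. Rab5c made up 44.8% (36.2 to 53.6) of the Rab5c and Rab5a pair in stress nuclei and 52.9% (47.6 to 58.1) in steady nuclei, with overlapping intervals.

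**Figure D3:**
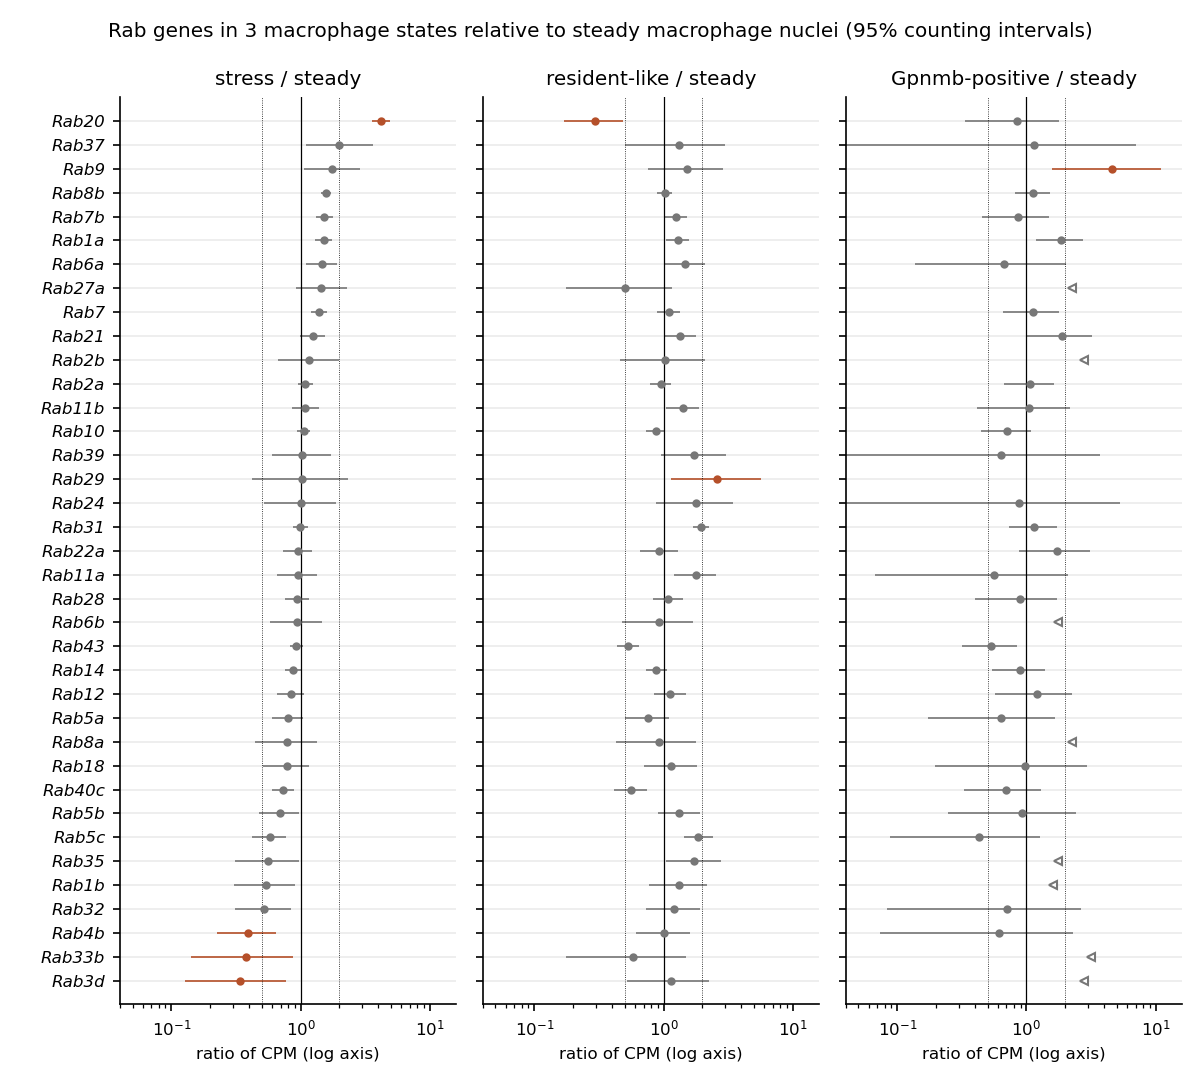
Ratio of CPM in stress, resident-like and Gpnmb-positive nuclei to that in steady macrophage nuclei, on log axes with exact intervals, for the 37 Rab genes tested in both the stress and the resident-like comparison. Orange points met the 2-fold rule, dotted lines mark 2-fold, and open triangles show the upper bound for genes at 0 UMIs in Gpnmb-positive nuclei. Intervals that reach the left edge go on past it. Rab20 is at the top in stress nuclei and at the far left in resident-like nuclei.

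In resident-like nuclei the summed Rab level was 5070 CPM (4871 to 5274). Of 37 Rab genes tested, 1 was higher than in steady nuclei (2.70%, against 6.88% of all genes) and 1 was lower (2.70%, against 8.92%). The median ratio was 1.13 over these genes and 0.980 over all 9213 genes tested. Scaled by that median, 2 were higher, Rab29 and Rab31, and Rab20 remained the lower one. Resident-like nuclei came mostly from well 2 and steady nuclei mostly from well 1. The 3 monocyte markers also summed to 640 CPM in resident-like and 58.6 CPM in steady nuclei, chiefly Ccr2, and their part in these results was not tested.

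Rab20 went the other way here. It stood at 35.2 CPM in resident-like nuclei (17 UMIs) against 119 CPM in steady nuclei, a ratio of 0.295 (0.169 to 0.483), and 3.08% of thinned resident-like nuclei had a UMI. Within well 2, which held 110 of the 132 nuclei, the levels were 30.2 and 123 CPM, a ratio of 0.246 (0.120 to 0.474). Within well 1 they were 75.7 CPM from 4 UMIs and 119 CPM, a ratio of 0.638 (0.172 to 1.66). The level of Rab20 was thus lowest in resident-like, intermediate in steady and highest in stress nuclei, and the 3 intervals did not overlap over both wells together. Gpnmb-positive nuclei, at 101 CPM from 7 UMIs, could not be placed apart from steady nuclei.

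Rab29 was the higher gene, with 12 UMIs (24.8 CPM) against 18 (9.51 CPM), a ratio of 2.61 (1.15 to 5.73). It rested on few counts, and within well 2 it was 2.49 (0.659 to 13.9). Rab31 stood just under the limit on far more counts, at 596 CPM in resident-like and 303 CPM in steady nuclei, a ratio of 1.97 (1.70 to 2.27). Its ratio was 1.71 (1.10 to 2.53) in well 1 and 1.59 (1.27 to 2.0) in well 2, both smaller than the pooled value. In steady nuclei alone, Rab31 stood at 289 CPM in well 1 and 383 CPM in well 2. Rab31 made up 86.5% (82.3 to 90.0) of the pair with Rab22a in resident-like nuclei and 75.1% (71.9 to 78.2) in steady nuclei.

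Several pooled differences of resident-like nuclei shrank within wells. Rab43 stood at 259 and 487 CPM, a ratio of 0.531 (0.437 to 0.641), but it was 0.873 (0.556 to 1.31) in well 1 and 0.772 (0.575 to 1.04) in well 2. In steady nuclei alone, Rab43 stood at 520 CPM in well 1 and 304 CPM in well 2. Rab5c stood at 188 and 101 CPM, a ratio of 1.86 (1.43 to 2.40), and was 1.35 (0.926 to 1.98) in well 2 and 0.819 (0.220 to 2.14) in well 1. For Rab5c too the steady level differed between wells, at 92.5 CPM in well 1 and 150.3 CPM in well 2.

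**Figure D4:**
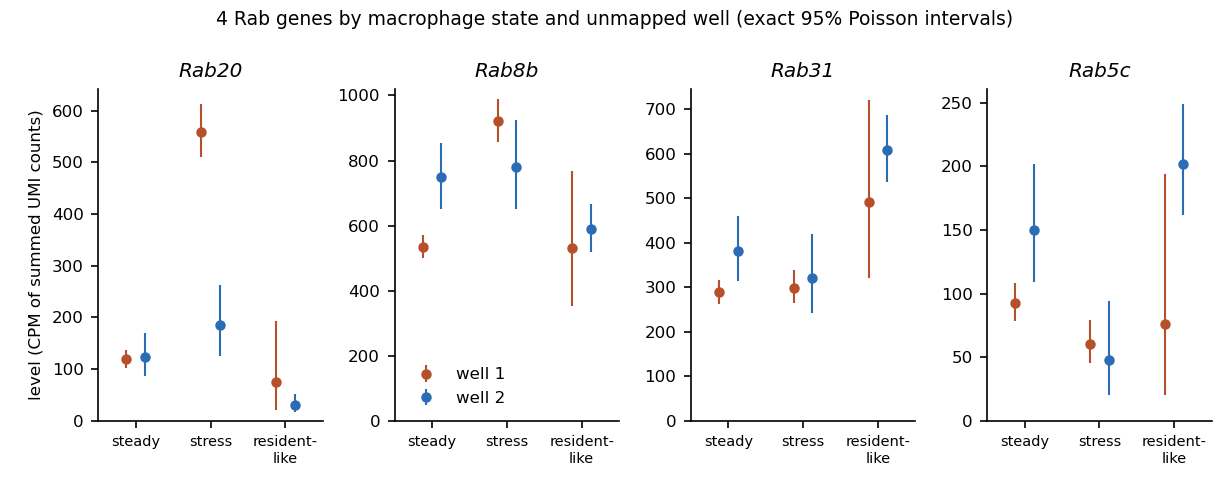
Level of Rab20, Rab8b, Rab31 and Rab5c in CPM in steady, stress and resident-like nuclei of each unmapped well, with exact Poisson intervals and axes that start at 0. Rab20 in stress nuclei reaches 560 CPM in well 1 and 184 CPM in well 2, while its steady levels are 119 and 123 CPM.

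The 15 Gpnmb-positive nuclei held 315 Rab UMIs, 4553 CPM (4064 to 5085), and the depth allowed little. Of 36 Rab genes tested, 1 was higher than in steady nuclei (2.78%, against 6.82% of all genes) and 0 were lower (against 5.74%). The median ratio was 0.779 over these genes and 0.829 over all 8675 genes tested. Scaled by that median, 4 were higher, namely Rab9, Rab21, Rab1a and Rab22a. The higher gene without scaling, Rab9, had 6 UMIs in 4 of the 15 nuclei, 3 of them in 1 nucleus (86.7 CPM against 19.0 CPM in steady nuclei), a ratio of 4.56 (1.57 to 10.9).

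Counting also the nuclei that met a second state gave 22 Gpnmb-positive nuclei, 20 of them in well 2. Rab9 had 8 UMIs in 6 of these, a ratio of 3.81 (1.53 to 8.34). Rab21 stood at 254 and 108 CPM (2.35, 1.53 to 3.51) and Rab1a at 417 and 205 CPM (2.03, 1.46 to 2.77), while Rab43 stood at 181 and 487 CPM (0.372, 0.226 to 0.578). Within well 2, Rab9 had 8 UMIs against 3, a ratio of 7.77 (1.87 to 45.5) that fell under the minimum of 20 UMIs. Rab1a was 1.79 (1.21 to 2.62), Rab21 was 1.52 (0.906 to 2.48) and Rab43 was 0.622 (0.358 to 1.03) there, all within 2-fold. Rab20 met the rule in well 2, at 249 and 123 CPM (2.02, 1.16 to 3.47). Of its 25 UMIs, 6 came from the 13 nuclei in the Gpnmb-positive state alone, where the ratio was 0.824 (0.284 to 1.97), and the rest came from nuclei that also met another state. The 8 tested genes at 0 UMIs in the 15 nuclei, among them Rab27a, Rab8a and Rab3d, had upper bounds of the ratio of 1.60 to 3.14, so a lower level was not detectable at this depth. Rab7 (1.12), Rab7b (0.860), Rab8b (1.12) and Rab31 (1.14) had intervals that included 1.

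The partners of Rab proteins were read from 13 lists of 127 genes. Between macrophage and epithelial nuclei, 119 were tested, 29 were higher (against 15.9% of all genes) and 24 were lower (against 28.1%), with a median ratio of 1.13. The lists were chosen with earlier results of these data known, so their counts describe them and test nothing. The 3 genes of the LRRK list were all higher. Lrrk1 stood at 305 and 53.8 CPM (5.67, 4.62 to 7.04) and Lrrk2 at 15.7 and 2.72 CPM (5.77, 2.34 to 18.4), both kinases of Rab proteins. Ppm1h, a phosphatase that acts on Rab proteins, stood at 1099 and 291 CPM (3.78, 3.46 to 4.15).

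The effectors of Rab27 ran the opposite way, 6 of 7 tested being lower in macrophage nuclei. Mlph stood at 3.51 and 80.9 CPM, 23.0-fold lower (13.1 to 44.3), and Exph5 at 2.43 and 40.7 CPM, 16.7-fold lower (8.37 to 38.0). The others were Sytl1, Sytl2, Sytl3 and Sytl5. Of the Rab11 effectors 5 of 8 were lower, led by the motor Myo5b at 5.94 and 243 CPM, 40.9-fold lower (26.7 to 66.0), and Myo5c, 23.8-fold lower. The related motor Myo5a was higher, at 732 and 54.8 CPM (13.3, 10.9 to 16.4).

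On the route to the lysosome the counts were smaller. None of 9 Rab5 effectors met the 2-fold rule, though the intervals of 6 excluded 1, above it for Eea1 (1.64, 1.45 to 1.87), Rabep1, Ankfy1 and Appl1 and below it for Rabep2 (0.588) and Pik3r4 (0.580, 0.412 to 0.819). Of 6 Rab5 activators Rin3 was higher, at 279 and 12.5 CPM (22.3, 14.8 to 35.3), while Rin2 was lower (0.478). Of the Rab7 activator, Mon1a (0.341) and Mon1b (0.294) were lower and the third subunit was not. Of 6 Rab7 effectors, Rubcnl (14.0, 8.54 to 24.7) and Wdr91 (6.73, 4.58 to 10.3) were higher, and of the 8 HOPS and CORVET tethers, Vps18 (2.70) and Vps41 (2.06). In retromer, which retrieves receptors from endosomes, Vps26a was higher (2.14). Hps4, part of the exchange factor for Rab32 and Rab38, was also higher (2.68, 1.94 to 3.79), as was Dtnbp1 (2.73) of the same list. Hps1, the partner of Hps4 in that factor, was not (1.04, 0.714 to 1.54).

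The regulators of Rab activity were divided. Of 32 tested genes whose proteins turn Rab proteins off, most with a TBC domain, 9 were higher and 5 were lower. The higher ones were led by Tbc1d16 (10.0, 7.35 to 14.0), Tbc1d2b (7.14) and Tbc1d22a (4.08), and the lower ones by Tbc1d30 (0.183). Of 16 DENN activators, 6 were higher, with Dennd2a (16.4, 4.37 to 138), Dennd1c (14.6) and Dennd4b (9.01) first, and 5 were lower, with Dennd3 (0.133) and Dennd5b (0.184) first. Of 8 genes that prenylate or recycle Rab proteins, Gdi2 (2.27) and Chml (2.27) were higher.

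**Figure D5:**
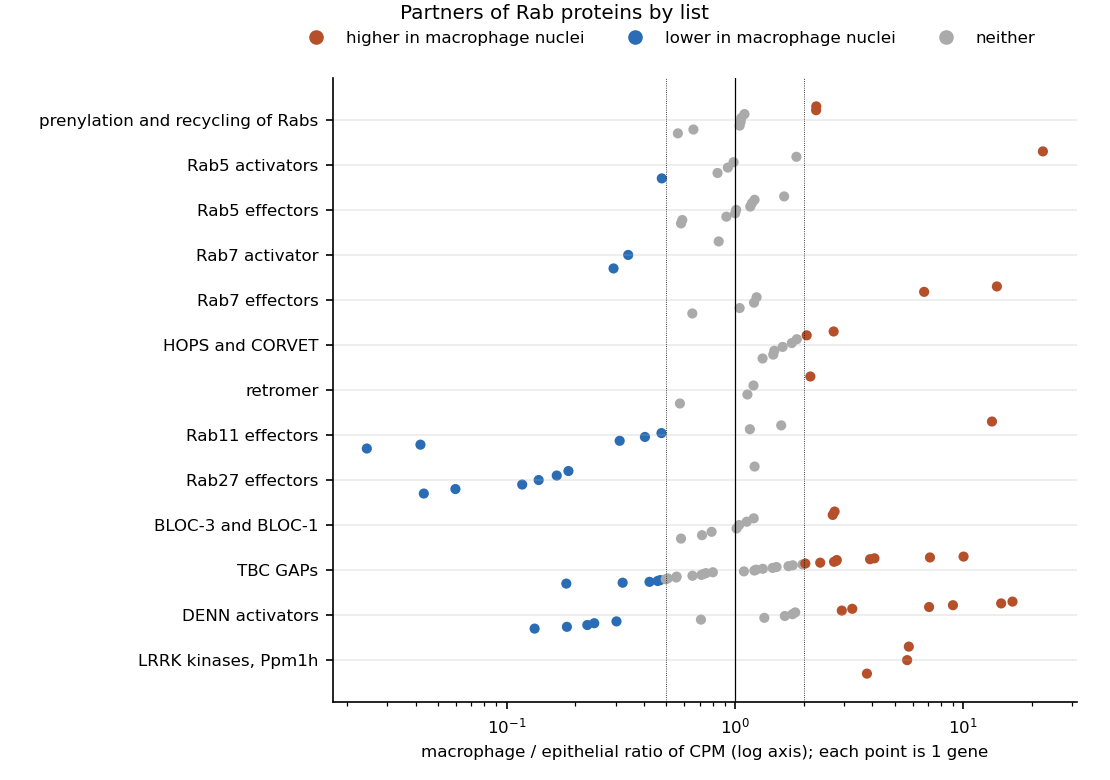
Macrophage to epithelial ratio of CPM on a log axis for each tested gene of the 13 partner lists, 1 point per gene. Orange and blue points met the 2-fold rule, and dotted lines mark 2-fold. The LRRK list lies wholly to the right and 6 of 7 Rab27 effectors lie to the left.

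Partners differed between macrophage states in few cases. In stress nuclei 3 of 105 tested were higher (against 5.08% of all genes) and 7 were lower (against 7.08%). The higher ones were Rabgef1, an exchange factor for Rab5, at 625 and 179 CPM (3.49, lower bound 3.05), Rab11fip1 (2.88) and Dennd4a (2.03). Fyco1 (0.494) and Rubcnl (0.472), both effectors of Rab7, were lower. Rabgef1 was 3.76 in well 1 and 2.18 in well 2, Dennd4a 2.08 and 1.72, and Rab11fip1 1.73 and 18.6, the last with 3 UMIs in steady nuclei of well 2. In resident-like nuclei 8 of 102 were higher and 9 lower (against 6.88% and 8.92%), with Rab11fip5, an effector of Rab11, at 352 and 85.6 CPM (4.11), and Dennd4c at 625 and 210 CPM (2.98). Most resident-like and Gpnmb-positive nuclei came from well 2 and most steady nuclei from well 1. Within well 2, 2 of these 8 were still higher and 3 of these 9 lower in resident-like nuclei. Rab11fip5 was 2.55 (1.82 to 3.64) there and 1.28 (0.410 to 3.08) in well 1, and Dennd4c was 1.74 (1.40 to 2.18) and 0.860 (0.368 to 1.72). In Gpnmb-positive nuclei 8 of 100 were higher and 7 lower (against 6.82% and 5.74%). Among them, Tbc1d15, a GTPase activator of Rab7, stood at 477 and 91.4 CPM (5.22, lower bound 3.48), and Lrrk1 at 28.9 CPM from 2 UMIs against 371 CPM. Within well 2, 5 of these 8 were higher and 4 of these 7 lower, Tbc1d15 (5.26, 3.12 to 8.88) and Lrrk1 (0.107, 0.0128 to 0.399) among them.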

How the data were processed

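Nuclei of sorted tumour-associated macrophages were profiled with the 10x Genomics 3′ v3 kit in 2 samples. The deposited matrix holds whole UMI counts per gene and barcode, made by the authors with Cell Ranger 5.0 on mm10, per the submitters' processing notes (version 5.0.1 per the file headers). The sources used here do not give the annotation, the counting of introns and strands or the calling of barcodes. Each UMI counts 1 molecule, so PCR copies do not add.

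Barcodes with under 500 UMIs, under 300 genes or over 5% mitochondrial counts (21) and Scrublet doublets (0 in well 1, 5 in well 2, scanpy 1.11.5) were removed. The doublet yield was low. Counts were summed over nuclei of a set and given as CPM with exact Poisson intervals. Ratios have conditional binomial intervals and shares Clopper-Pearson intervals (numpy 2.4.6, scipy 1.17.1, pandas 2.3.3, Python 3.11.15, matplotlib 3.10.9). The ratio script was tested on simulated data. Positions and lengths are those of GENCODE vM21, in which all 59 Rab genes were found, and promoters those of RefSeq.

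Values were named for every Rab gene that met the 2-fold rule, for the most counted member of each role group, for their close relatives, and for up to 3 genes per partner list. A few further Rab genes were named after their values were seen. The members, lists and sets were chosen with earlier results of these data known. Alternatives changed depth, scaling, the UMI minimum, the limits of each set and the well. The nuclei near limits were 100 within 20% of the epithelial limit, 62 of the stress limit and 37 of the resident-like limit, and 114 nuclei lay exactly at 3 macrophage UMIs.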

Additional observations from a re-analysis of the deposited data

How the results depend on the processing

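No p-value was computed, so the values below are counts of Rab genes that met the 2-fold rule. The number lower in macrophage than epithelial nuclei (12) was 2 with nuclei thinned to 1000 UMIs, which left fewer UMIs to test, and 0 in well 2 alone. The number higher in Gpnmb-positive nuclei (1) was 4 scaled by the median ratio, 3 with no UMI minimum, with 4 or more Gpnmb UMIs or with nuclei of several states, and 0 with 50 or more UMIs or in either well alone. The number lower (0) was 1 with nuclei of several states. The number higher in resident-like nuclei (1) was 2 scaled by the median ratio or with nuclei of several states, 3 in well 1 and 0 in well 2, with 50 or more UMIs or with 5 or more macrophage UMIs. The number lower (1) was 2 in well 1. The number higher in stress nuclei (1) was 3 scaled by the median ratio or with stress genes at 10000 CPM, 0 in well 2, and 2 in well 1, with 1000 or more UMIs per nucleus, without the deepest 5% of nuclei or with nuclei of several states. The number lower (3) was 1 with 50 or more UMIs or in well 2. Where no construction of the setting shows it, the cause was not tested.

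Single ratios reversed in 3 cases, in 1 well each: Rab3d (2.65) and Rab18 (1.01) over epithelial nuclei in well 2, and Rab9 in Gpnmb-positive nuclei of well 1 (0, from 2 nuclei). Of 286 gene values under the alternatives, 257 met the rule in the same direction and 26 kept the direction but not the rule. Another 38 had too few UMIs. Of the 20 differences between macrophage and epithelial nuclei, 14 met the 2-fold rule in the same direction in every alternative with enough UMIs. A limit on ribosomal protein counts (20000 CPM), added after seeing the data, changed no count by over 1.5 times. No paired analysis was possible because the wells carry no replicate number and no result comes from a test.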
